A study of Mus musculus with 6 samples.

Results

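The classical protein tyrosine phosphatases (PTPs) were examined in the transcriptomes of splenic CD4+ T cells separated by the surface protein Lrig1. Members were taken by gene symbol, as *Ptpn* followed by a number or *Ptpr* followed by a letter, which gave 38 of the 45777 genes and 297 of the 129299 transcripts in the tables. The cells were sorted as CD4+Lrig1+ or CD4+Lrig1- T cells from the spleen of female C57BL/6 mice (an inbred strain) aged 7 weeks, with no treatment or altered gene in either group. The data analysed here are 4 RNA-seq libraries, 1 of each group in each of 2 tables, called set 1 and set 2. The labels list 3 libraries per group, and columns that could not be tied to a group by name were not used here. The study describes its data as coming from independent experiments or samples, but which animals or sorts each library came from is not given in the sources used here. The p-values below rest on the spread between these libraries only, which may be in part technical. The fits also share information on spread across genes, so a p-value or SE does not measure a gene's own spread alone.

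Classical PTPs remove phosphate from tyrosine through a catalytic cysteine. The receptor type members (*Ptpr*) cross the plasma membrane, and the non-receptor members (*Ptpn*) are placed by SH2, FERM, PDZ or other domains. In T cells, CD45 (*Ptprc*) removes the inhibitory phosphate from the kinase Lck, whereas members such as PTPN22, SHP1 (*Ptpn6*) and TC-PTP (*Ptpn2*) are known for limiting antigen receptor or cytokine signals. CD45 itself is made in several forms by alternative use of exons A, B and C, which encode part of its outer region. Naive T cells are known for forms that hold these exons, and activated and memory T cells for forms that lack them.

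Of the 38 genes, 28 passed the filter on low counts and were tested, 6 had 0 counts in all 4 libraries, and 4 had at most 5 counts in any library. The genes at 0 were *Ptpn20*, *Ptprd*, *Ptprg*, *Ptprq*, *Ptprt* and *Ptprz1*, and a count of 0 allows up to 3 counts, or 0.0522 to 0.0627 CPM (counts divided by the scaled library size), in a library. The near-silent genes were *Ptprb*, *Ptprh*, *Ptprr* and *Ptpru*. Many of these genes are known from neurons, endothelium or epithelium. The gene totals were 44865070 to 59977951 estimated counts per library, of which the phosphatases took 0.286% to 0.439%, and *Ptprc* alone took 47.4% to 56.5% of the phosphatase counts.

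The sequences that distinguish the forms of *Ptprc* are given here because the transcript shares described further on turn on them. The gene (ID 19264) lies on the minus strand of chromosome 1 of GRCm38 from 138062859 to 138175756. Exon A is exon 4 (chr1:138122456-138122584, 129 bases), exon B is exon 5 (chr1:138120020-138120166, 147 bases) and exon C is exon 6 (chr1:138117754-138117894, 141 bases). All are coding and multiples of 3 bases long. Each is printed 5′ to 3′ in capitals between 15 bases of the neighbouring exons in lower case.
exon A: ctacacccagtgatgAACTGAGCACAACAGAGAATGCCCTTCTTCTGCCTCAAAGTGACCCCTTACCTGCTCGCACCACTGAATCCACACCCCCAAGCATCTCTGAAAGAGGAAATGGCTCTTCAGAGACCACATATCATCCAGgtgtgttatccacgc
exon B: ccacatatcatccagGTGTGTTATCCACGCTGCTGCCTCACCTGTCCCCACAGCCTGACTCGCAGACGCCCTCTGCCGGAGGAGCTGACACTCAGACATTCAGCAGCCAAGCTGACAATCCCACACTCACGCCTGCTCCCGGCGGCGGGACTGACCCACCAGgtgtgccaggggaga
exon C: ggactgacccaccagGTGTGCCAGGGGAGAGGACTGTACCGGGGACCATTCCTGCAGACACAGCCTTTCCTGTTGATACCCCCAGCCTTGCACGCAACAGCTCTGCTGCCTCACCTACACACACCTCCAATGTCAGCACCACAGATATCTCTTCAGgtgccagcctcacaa
The junctions that skip these exons are shown next, with the last 15 bases of exon 3 in lower case and the first 15 bases of the exon joined to it in capitals. The first joins exon 3 to exon D (exon 7), and the second skips exon D as well.
junction to exon D: ctacacccagtgatgGTGCCAGCCTCACAA
junction past exon D: ctacacccagtgatgCTACCACAACGAAGC

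Per transcript length, *Ptprc* was the most abundant phosphatase, with 261 to 390 FPKM (read fragments divided by transcript length and by the library's mapped fragments, summed over transcripts) in the 4 libraries. *Ptpn6* followed with 92.3 to 132 FPKM, below every library of *Ptprc*. The next genes in order of mean FPKM were *Ptpn18*, *Ptpn7*, *Ptpn22* and *Ptpn1*, whose ranges all overlapped between 39.4 and 90.7 FPKM. *Ptpn2*, *Ptpra* and *Ptpn11* lay between 14.3 and 37.6 FPKM and also overlapped each other. Most receptor type members other than *Ptprc* and *Ptpra* were low, and the plot of levels by library shows the full order.

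**Figure D1:**
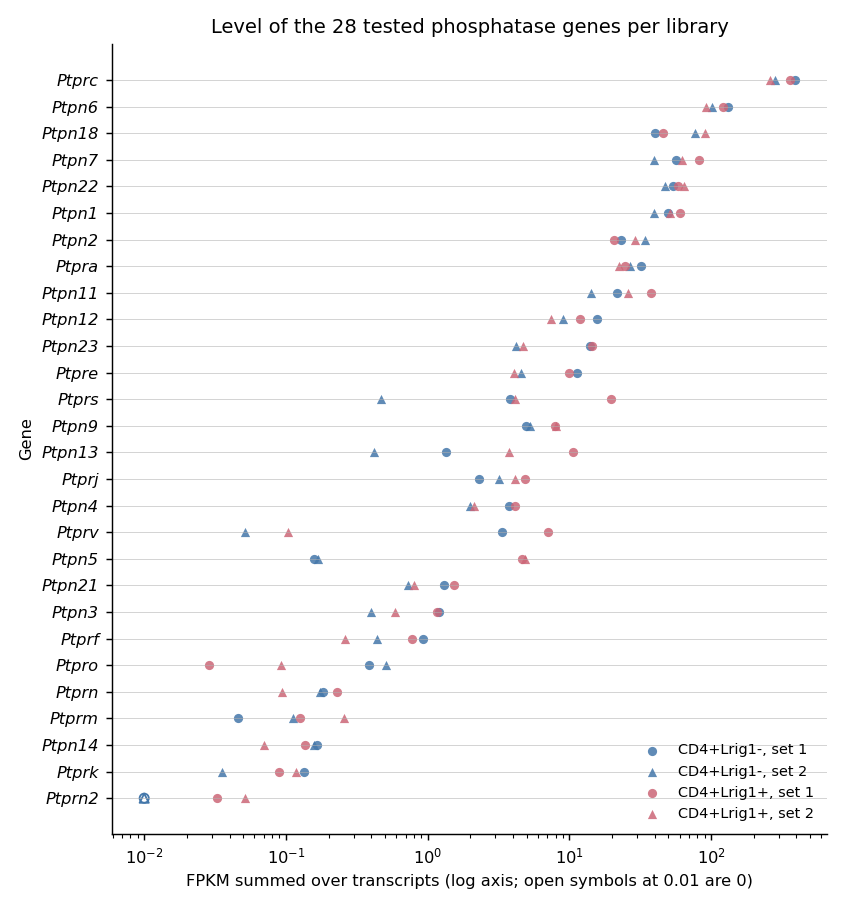
FPKM of the 28 tested phosphatase genes on a log axis, ordered by their mean over 4 libraries. Each symbol is 1 library (blue, CD4+Lrig1-, red, CD4+Lrig1+, circles, set 1, triangles, set 2), and *Ptprc* at 261 to 390 FPKM lies above all other genes, while *Ptprs*, *Ptpn13* and *Ptprv* are spread widely between the sets.

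Levels of many members differed more between the sets than between the groups. Within CD4+Lrig1- T cells, the log2 CPM of the 28 tested genes differed between set 2 and set 1 by a median of 0.56 in size. From set 1 to set 2, *Ptprs* differed on the log2 scale by -2.21 in the CD4+Lrig1- libraries and by -2.01 in the CD4+Lrig1+ libraries. *Ptpn18* differed the other way, by 1.10 and 1.08. For this reason ratios of CD4+Lrig1+ over CD4+Lrig1- T cells are given within each set, and a fit that includes the set as a covariate (the table term) stands beside the fit without it.

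The gene of the sorted protein, *Lrig1*, was higher in the CD4+Lrig1+ library of each set (log2 ratio 1.55 and 1.81). The T cell identity genes were abundant in all libraries, with *Cd4* at 924 to 1100 CPM and *Cd3e* at 453 to 632 CPM. All 8 regulatory T (Treg) cell genes listed were at least 2-fold higher in the CD4+Lrig1+ library of each set, with a summed level of 201 to 268 CPM in CD4+Lrig1- and 2327 to 2513 CPM in CD4+Lrig1+ T cells. All 7 naive T cell genes were lower in both sets, with a sum of 5033 and 7217 CPM in CD4+Lrig1- and 3140 and 3910 CPM in CD4+Lrig1+ T cells. In such bulk samples, fewer cells of a type and less RNA per cell cannot be told apart.

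With the 4 libraries compared by group, edgeR's quasi-likelihood test called none of the 28 phosphatases at an adjusted p under 0.05 (Benjamini-Hochberg over the 16123 genes tested), and 0% of all genes. At an unadjusted p under 0.05 there were 3 phosphatases and 901 genes. Other tools without the table term called 1 phosphatase (*Ptpn5*, edgeR's exact test), 2 (*Ptpn5* and *Ptpn13*, DESeq2's Wald test) and 0 (limma on FPKM). With the table term, edgeR's quasi-likelihood test called 11 phosphatases higher (39.3% of 28) and 3 lower (10.7%) in CD4+Lrig1+ T cells, against 14.6% higher and 12.8% lower among all genes tested. The 11 include *Ptprn2*, which passed the filter on low counts through the CD4+Lrig1+ libraries alone. The fit with the table term leaves 1 residual degree of freedom. Its SE and p-values therefore draw largely on a spread shared across genes. The median log2 ratio of the 28 genes was 0.20 in set 1 and 0.22 in set 2, beside 0.0052 and -0.060 for all genes.

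At least a 2-fold difference in the same direction in both sets was seen for 5 members higher (*Ptpn5*, *Ptpn13*, *Ptprs*, *Ptprn2* and *Ptprm*) and 1 lower (*Ptpro*) in CD4+Lrig1+ T cells, of 28 with at least 10 counts in some library. Among all genes with such counts, 7.84% were higher and 3.38% lower by the same rule. The libraries of the groups did not overlap for 10 phosphatases higher and 4 lower, where the shares of all tested genes were 14.3% and 11.8%. *Ptprn2*, with counts in the CD4+Lrig1+ libraries alone, is among the 5 and the 10. Ratios had the same sign in both sets for 16 phosphatases higher and 9 lower, and opposite signs for 3, as the plot of ratios by set shows. The matching shares of all genes were not computed, so these counts are not read as particular to the phosphatases.

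**Figure D2:**
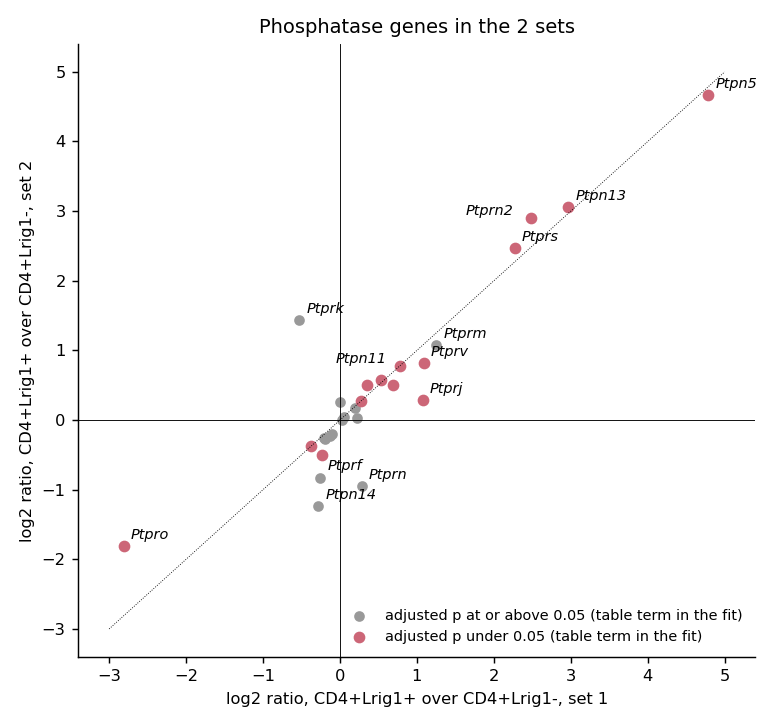
Log2 ratio between the groups, as CD4+Lrig1+ over CD4+Lrig1- T cells, in set 1 (x axis) and set 2 (y axis) for the 28 tested phosphatase genes, 1 point per gene, with the dotted line marking equal ratios. Red points have an adjusted p under 0.05 in edgeR's test with the table term, and *Ptpn5*, *Ptpn13*, *Ptprs* and *Ptprn2* lie farthest to the upper right with *Ptpro* alone at the lower left.

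Among the phosphatases with a kinase interaction motif, which bind MAP kinases, *Ptpn5* had the largest difference of well counted members. *Ptpn5* (STEP, ID 19259, chromosome 7 from 47077795 to 47134026) encodes a phosphatase best known from the striatum. It had 0.689 and 0.852 CPM in CD4+Lrig1- T cells of set 1 and set 2, and 20.0 and 22.5 CPM in CD4+Lrig1+ T cells. Both CD4+Lrig1+ libraries lay far above both CD4+Lrig1- libraries, and the sets were close to each other. The ratio was 27.6-fold in set 1 and 25.4-fold in set 2. The log2 fold change was 4.78 ± 0.15 (SE) with the table term (edgeR, adjusted p = 4.8e-06) and 4.78 ± 0.39 without it (adjusted p = 0.50).

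Nearly all *Ptpn5* counts (33 of 33 and 46 of 46 in CD4+Lrig1-, 1040 of 1041 and 1295 of 1295 in CD4+Lrig1+ T cells) were on 1 predicted transcript of 4177 bases that starts at position 47133695. Transcripts of the gene with other start positions had 0 counts in every library. Some of these starts, at 47133684 and 47133701, lie a few bases away. The zeros there may depend on how reads were divided among transcripts. A promoter window that holds position 47133695 is shown because the counts were assigned there (RefSeq, GRCm38.p6, chr7:47133635-47133934, minus strand). The window runs from 250 bases before to 50 after another annotated start of the gene, 47133684, at which no counts were listed, so it is centred on a neighbouring start and not on the one with the counts. Capitals mark matches to GGAAGT on either strand, the core of sites known to be bound by ETS factors.
Ptpn5 promoter: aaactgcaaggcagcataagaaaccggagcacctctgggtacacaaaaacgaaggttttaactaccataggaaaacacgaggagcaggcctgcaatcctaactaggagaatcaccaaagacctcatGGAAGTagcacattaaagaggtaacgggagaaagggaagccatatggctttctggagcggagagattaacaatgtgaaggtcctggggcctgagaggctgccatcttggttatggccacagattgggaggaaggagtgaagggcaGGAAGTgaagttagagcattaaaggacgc
It held 2 such matches, and 23.8% of 32851 promoters of this length held at least 1. GTAAACA, a forkhead core found in 3.65% of promoters, and TGTGGT, a RUNX core found in 16.8%, had no match in this window on either strand. A match is a description of the sequence only.

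*Ptpn7* (HePTP, ID 320139, chromosome 1 from 135131838 to 135145328), the blood cell member of the same group, was more abundant and differed less. It had 195 and 154 CPM in CD4+Lrig1- and 282 and 229 CPM in CD4+Lrig1+ T cells, so that the groups did not overlap. The ratio was 1.45-fold and 1.48-fold, with an adjusted p of 0.0020 with edgeR and the table term. One *Ptpn7* transcript overlaps *Ptprv* on the opposite strand, and leaving it out gave log2 ratios of 0.50 and 0.54 in place of 0.53 and 0.57.

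*Ptprv* (ID 13924), listed as a non-coding transcript, had 21.1 CPM in CD4+Lrig1- and 45.0 CPM in CD4+Lrig1+ T cells in set 1 but 0.389 and 0.714 CPM in set 2. Set 2 less set 1 was -5.63 and -5.90 on the log2 scale, so that the groups overlapped. The ratio within a set was 2.13-fold in set 1 and 1.76-fold in set 2 (edgeR with the table term, adjusted p = 0.0012). The kit marks strand, but whether the counting used strand is not given in the sources used here, so reads of *Ptprv* and *Ptpn7* may not be separable. *Ptprr*, the third member with the motif, had 2 counts in 1 CD4+Lrig1- library and 0 elsewhere.

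*Ptpn13* (FAP-1, ID 19249, chromosome 5 from 103425192 to 103598361), a large FERM and PDZ domain phosphatase known for binding Fas, was also higher in CD4+Lrig1+ T cells. It had 11.6 and 4.09 CPM in CD4+Lrig1- T cells and 91.0 and 34.4 CPM in CD4+Lrig1+ T cells. Each CD4+Lrig1+ library exceeded both CD4+Lrig1- libraries, and set 1 was the higher set in both groups. The ratio was 7.82-fold and 8.34-fold (log2 fold change 3.02 ± 0.096, edgeR with the table term, adjusted p = 4.8e-06; without it 2.998 ± 0.81, adjusted p = 0.69). The related genes *Ptpn3* and *Ptpn4* were not called (log2 ratios 0.0030 and 0.26, and 0.026 and -0.0044).

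Among receptor type members, *Ptprs* (PTPσ, ID 19280, chromosome 17 from 56412426 to 56476561), of the LAR group that binds proteoglycans, had 26.1 and 5.63 CPM in CD4+Lrig1- and 126 and 31.4 CPM in CD4+Lrig1+ T cells. The groups did not overlap, but the CD4+Lrig1+ library of set 2 was only slightly above the CD4+Lrig1- library of set 1. The ratio was 4.83-fold and 5.55-fold (log2 fold change 2.37 ± 0.094, edgeR with the table term, adjusted p = 1.1e-05; without it 2.31 ± 1.09, adjusted p = 1.00). Its counts differed in transcript. In CD4+Lrig1- T cells of set 2, 281 of 304 counts were on a transcript that starts at 56445826, within the gene. The transcript of 6859 bases had 0 counts there, but 1802 of 1805 in CD4+Lrig1+ T cells of set 2. In set 1 the transcript of 6859 bases had 860 of 1252 and 3342 of 6578 counts. The split depends on how reads were divided among transcripts that overlap. *Ptprs* is known as a marker of plasmacytoid dendritic cells. Of the 6 listed genes of those cells, 5 were lower in CD4+Lrig1+ T cells with the table term, and their summed level was 85.9 and 218 CPM in CD4+Lrig1- against 70.8 and 113 CPM in CD4+Lrig1+ T cells. None of the 6 was at 0 throughout, and the part of such cells in the *Ptprs* result was not tested. *Ptprf* of the same group had log2 ratios of -0.26 and -0.83 and was not called.

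*Ptpro* (GLEPP1, ID 19277, chromosome 6 from 137252299 to 137464634), best known from kidney podocytes and in short forms from B cells and macrophages, was the only member at least 2-fold lower in both sets. It had 1.71 and 2.48 CPM in CD4+Lrig1- and 0.212 and 0.679 CPM in CD4+Lrig1+ T cells, without overlap. The ratio was 7.02-fold lower in set 1 and 3.51-fold lower in set 2 (log2 fold change -2.35 ± 0.43, edgeR with the table term, adjusted p = 0.0068). These are low levels, resting on 82 and 134 against 11 and 39 counts.

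The *Ptpro* counts also differed in transcript. In CD4+Lrig1- T cells, 24 and 55 of the 82 counts in set 1 and 128 and 6 of the 134 counts in set 2 were on 2 short transcripts that start at position 137410721, within the gene. By contrast, in CD4+Lrig1+ T cells all 11 and 39 counts were on the full-length transcript of 6622 bases. These counts are few, and the split depends on how reads were divided among transcripts that overlap. B cell genes summed to 65.3 and 743 CPM in CD4+Lrig1- and 67.8 and 365 CPM in CD4+Lrig1+ T cells. Myeloid genes summed to 48.1 and 230 CPM and to 50.1 and 200.1 CPM, and no gene of either list was at 0 throughout. With the table term, 3 of 10 B cell genes were lower, and of 10 myeloid genes 2 were lower and 1 higher. The part of such cells in the *Ptpro* result was not tested.

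**Figure D3:**
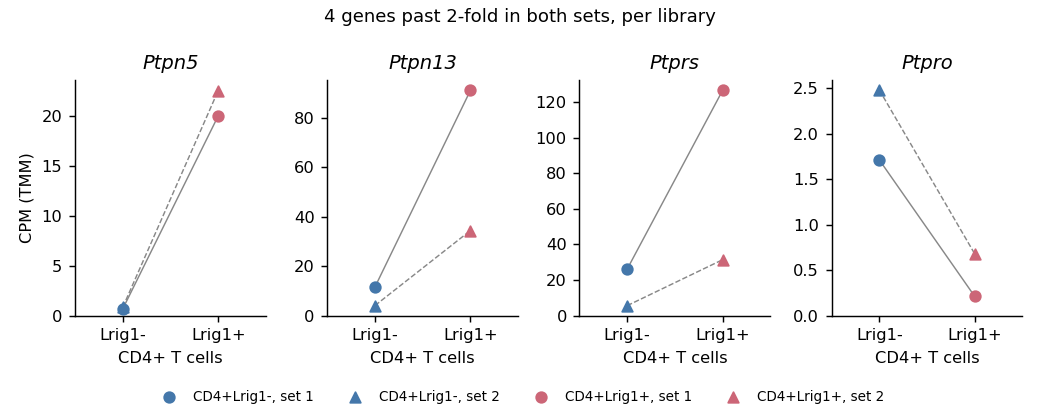
CPM after TMM scaling (y axis, from 0) of *Ptpn5*, *Ptpn13*, *Ptprs* and *Ptpro* in CD4+Lrig1- and CD4+Lrig1+ T cells, 1 symbol per library (circles and solid lines, set 1, triangles and dashed lines, set 2). Both lines go up for *Ptpn5*, *Ptpn13* and *Ptprs* and down for *Ptpro*, and *Ptpn5* is the gene whose sets lie closest together.

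*Ptprj* (CD148, ID 19271), which acts on Src family kinases, had 18.2 and 29.0 CPM in CD4+Lrig1- and 38.4 and 35.4 CPM in CD4+Lrig1+ T cells. The groups did not overlap, but the ratio was 2.11-fold in set 1 and only 1.22-fold in set 2 (edgeR with the table term, adjusted p = 0.026). *Ptpra*, which activates Src family kinases, went the other way, with 119 and 125 CPM in CD4+Lrig1- and 101 and 88.1 CPM in CD4+Lrig1+ T cells (log2 fold change -0.37 ± 0.085, adjusted p = 0.017 in the same fit). Its nearest relative *Ptpre* was not called (log2 ratios -0.20 and -0.25).

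Of the low receptor type members, *Ptprn2* (phogrin), a protein of secretory vesicles with little phosphatase activity, had 0 counts in both CD4+Lrig1- libraries and 9 and 14 counts in the CD4+Lrig1+ libraries. Against a floor of 3 counts per library it was at least 2.76-fold higher in set 1 and at least 4.39-fold higher in set 2 on these counts. It passed the filter on low counts through the CD4+Lrig1+ libraries alone, so its adjusted p under 0.05 with the table term supports nothing further, and it was not called with the table term in DESeq2's Wald test or with its size factors. *Ptprm*, a MAM domain receptor that binds itself between cells, had 14 and 41 counts in CD4+Lrig1- and 39 and 94 counts in CD4+Lrig1+ T cells. Its CPM overlapped between the groups and it was not called (adjusted p = 0.073 in edgeR with the table term). *Ptprk* and *Ptprn* had ratios of opposite sign in the sets.

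Of the SH2 domain phosphatases, which bind phosphorylated receptors, *Ptpn11* (SHP2, ID 19247, chromosome 5 from 121130533 to 121191397) had 127 and 94.8 CPM in CD4+Lrig1- and 219 and 162 CPM in CD4+Lrig1+ T cells. Both CD4+Lrig1+ libraries were higher than both CD4+Lrig1- libraries, by 1.72-fold and 1.71-fold within the sets (log2 fold change 0.78 ± 0.072, edgeR with the table term, adjusted p = 0.00033; without it 0.78 ± 0.36, adjusted p = 1.00). *Ptpn6* (SHP1, ID 15170, chromosome 6 from 124720707 to 124738709) had 307 and 267 CPM in CD4+Lrig1- and 281 and 228 CPM in CD4+Lrig1+ T cells. The groups overlapped, and *Ptpn6* was not called (log2 fold change -0.18 ± 0.080, adjusted p = 0.15 with the table term).

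Of the PEST group, *Ptpn22* (PEP, ID 19260, chromosome 3 from 103856575 to 103912252), which acts on Lck and Zap70 together with the kinase Csk, had 175 and 167 CPM in CD4+Lrig1- and 223 and 236 CPM in CD4+Lrig1+ T cells. The groups did not overlap and the ratio was 1.27-fold and 1.41-fold (log2 fold change 0.42 ± 0.080, edgeR with the table term, adjusted p = 0.0079). *Ptpn12* (PTP-PEST), which acts on adhesion adaptors, had 52.9 and 35.0 CPM in CD4+Lrig1- and 40.8 and 27.0 CPM in CD4+Lrig1+ T cells. It was 1.30-fold lower in each set, although the libraries overlapped across sets (adjusted p = 0.015 in the same fit). *Ptpn18*, the third member, had 65.6 and 141 CPM in CD4+Lrig1- and 74.9 and 159 CPM in CD4+Lrig1+ T cells, which overlapped, and was not called (adjusted p = 0.094). A *Ptpn18* transcript of 1523 bases had 391 and 4801 counts in the CD4+Lrig1- libraries and 0 in both CD4+Lrig1+ libraries, while the gene's sum differed little. Estimated counts of transcripts that share most exons depend on how reads were divided among them.

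*Ptpn1* (PTP1B, ID 19246), known for acting on the insulin receptor and JAK kinases, had 220 and 202 CPM in CD4+Lrig1- and 267 and 244 CPM in CD4+Lrig1+ T cells. It was 1.21-fold higher in both sets without overlap (edgeR with the table term, adjusted p = 0.035). Its paralog *Ptpn2* (TC-PTP), which acts on JAK1, JAK3 and STAT5, had 69.0 and 78.0 CPM in CD4+Lrig1- and 60.4 and 64.7 CPM in CD4+Lrig1+ T cells. *Ptpn2* did not overlap either but was not called (log2 fold change -0.23 ± 0.073, adjusted p = 0.054 in the same fit). *Ptpn9* (MEG2), which has a lipid binding SEC14 domain, had 20.7 and 25.3 CPM in CD4+Lrig1- and 33.4 and 35.9 CPM in CD4+Lrig1+ T cells, 1.61-fold and 1.42-fold higher without overlap (adjusted p = 0.0039). *Ptpn14*, *Ptpn21* and *Ptpn23* were not called.

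*Ptprc* as a gene was not called. It had 2129 and 1750 CPM in CD4+Lrig1- and 1975 and 1524.5 CPM in CD4+Lrig1+ T cells, with overlap between the groups (log2 ratios -0.11 and -0.20, adjusted p = 0.37 in edgeR with the table term). The 9 *Ptprc* transcripts were then sorted by the variable exons they hold, worked out from their lengths and ends. Exon B was held by 5 transcripts, 2 lacked exons A, B and C, and the content of 2 could not be assigned.

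Transcripts with exon B took 44.1% and 37.2% of the *Ptprc* counts in CD4+Lrig1- T cells of set 1 and set 2, and 32.1% and 27.4% in CD4+Lrig1+ T cells. Both CD4+Lrig1+ libraries lay below both CD4+Lrig1- libraries, with differences of -12.0 percentage points in set 1 and -9.82 in set 2. Without the unassigned transcripts, which took 5.68% and 6.66% in CD4+Lrig1- and 14.8% and 9.16% in CD4+Lrig1+ T cells, the shares were 46.7% and 39.9% against 37.7% and 30.2%. If the unassigned transcripts all held exon B, the shares would be 49.8% and 43.9% against 46.9% and 36.6%, the groups would overlap, and the difference in set 1 would be -2.86 percentage points. These shares have 2 libraries per group and were not tested.

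Among single transcripts, that of 5003 bases, with exons B, C and D, took 9.9995% and 9.53% of the counts in CD4+Lrig1- and 7.27% and 3.17% in CD4+Lrig1+ T cells. The transcript of 4864 bases, with exons B and D, took 7.68% and 2.36%, and 5.80% and 0.871%. The transcript of 5568 bases with all of exons A to D took 24.3% and 25.0% in CD4+Lrig1- and 17.9% and 23.0% in CD4+Lrig1+ T cells. Within each set these 3 were lower in CD4+Lrig1+ T cells, and the last differed by less in set 2.

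The transcripts that lack exons A, B and C, whose junctions are printed above, took 50.2% and 56.1% in CD4+Lrig1- and 53.1% and 63.4% in CD4+Lrig1+ T cells. They were higher within each set, but the groups overlapped. The junction past exon D belongs to the transcript of 5177 bases, which took 19.7% and 26.5% against 21.9% and 30.8%. The junction to exon D belongs to the transcript of 5249 bases, which took 30.5% and 29.6% against 31.2% and 32.6%. The lower share of transcripts assigned to exon B stood beside the lower naive T cell genes given above. The B cell genes given above summed lower in CD4+Lrig1+ T cells in set 2 only. The part of either list of genes in the exon B share was not tested.

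**Figure D4:**
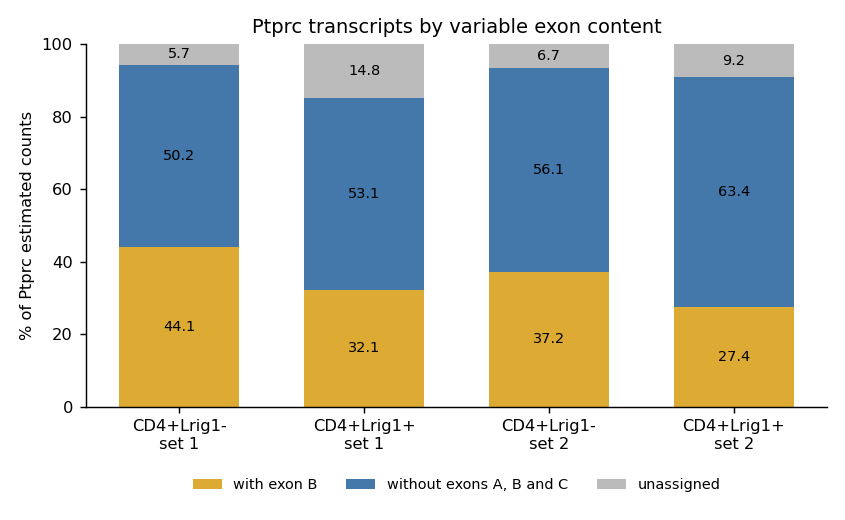
Percentage of *Ptprc* estimated counts (y axis, from 0 to 100) on transcripts with exon B, without exons A, B and C, and of unassigned content, 1 bar per library with the groups side by side within each set. Within each set the share with exon B is the lower one in CD4+Lrig1+ T cells, at 32.1% against 44.1% in set 1 and 27.4% against 37.2% in set 2.

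The partners of these phosphatases were examined from lists. Of 23 partners and substrates in T cell receptor and cytokine signalling, 7 were higher, 3 lower and 13 not called in CD4+Lrig1+ T cells with the table term, where 14.6% of all genes tested were higher and 12.8% lower. The median log2 ratios of the list were 0.029 and 0.0058. The kinase gene *Zap70* was higher (log2 fold change 0.52 ± 0.080, adjusted p = 0.0034), as were *Jak3* (0.69 ± 0.077, adjusted p = 0.00074) and *Stat5a* (0.50 ± 0.073, adjusted p = 0.0027). *Pag1*, an adaptor that holds Csk at the membrane, was lower (-1.08 ± 0.087, adjusted p = 0.00019). All values in this paragraph and the next are from edgeR with the table term, and without it none of the listed genes was called.

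Of 12 inhibitory receptors that recruit SHP1 or SHP2, 2 were higher, 3 lower and 7 not called, also to be read against 14.6% higher and 12.8% lower among all genes. *Pdcd1*, which encodes PD-1, was higher in CD4+Lrig1+ T cells (log2 ratios 3.197 and 3.24), as was *Cd5* by less (0.37 and 0.40). *Lair1* was lower (-1.49 and -1.70), and *Pirb* and *Pecam1* were lower too. The part of B cells, myeloid cells or plasmacytoid dendritic cells, whose genes are given above, in these values was not tested. Of 7 listed MAP kinase genes, 6 were tested, with the same shares of all genes as background. Whether the motif phosphatases bind each of these kinases was not examined. *Mapk12* (log2 ratios 1.79 and 2.45) and *Mapk11* (0.52 and 0.51) were higher, and *Mapk14* was lower (-0.37 and -0.44). *Mapk13*, which was not tested, had 17 and 4 counts in CD4+Lrig1- and 0 in both CD4+Lrig1+ libraries. Of 16 other cysteine based phosphatases, with the same shares of all genes as background, 5 were lower and 4 higher, the latter being *Ptpmt1* (0.77 and 0.82), *Cdc25b* (0.70 and 0.59), *Cdc14a* (0.52 and 0.58) and *Acp1* (0.57 and 0.44).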

How the data were processed

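RNA of CD4+Lrig1+ and CD4+Lrig1- T cells was sequenced by the authors from stranded mRNA libraries. Their notes name Trimmomatic 0.38, HISAT2 2.1.0, Bowtie2 2.3.4.1 and StringTie 2.1.3b, and the builds GRCm38 and mm10. The estimated counts per RefSeq transcript were made by the authors with StringTie and deposited without normalization. The FPKM values were deposited by the authors, scaled by transcript length and mapped fragments. Another table's 6 columns of per-sample values, named without a group, were left out. This is a number of columns and not of samples.

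Counts were summed per gene (4 libraries, 44865070 to 59977951 counts). In R 4.3.3, edgeR 4.0.16 was used for filterByExpr, TMM scaling and the quasi-likelihood test of group, with and without a term for the table, at a Benjamini-Hochberg adjusted p under 0.05. SE is the log2 fold change divided by the square root of F. CPM are TMM scaled, and a prior count of 2 entered the ratios of each set. Other settings were DESeq2 1.42.0, limma 3.58.1 with FPKM on the log2 scale after adding 1 or 0.1, edgeR's exact test, other scalings and filters, and leaving out a library. Tests were tried on simulated data.

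The members and lists were chosen with earlier results of these data known. Values in every library are given for *Ptprc*, *Ptpn1*, *Ptpn2*, *Ptpn6*, *Ptpn11*, *Ptpn12*, *Ptpn18*, *Ptpn22* and members past the adjusted p or 2-fold in both sets, and at most 5 genes are named per other list. *Ptpn3*, *Ptpn4*, *Ptprf*, *Ptpre*, *Ptprk*, *Ptprn* and *Mapk13* were named beside relatives after their values were seen. Some list genes that met this rule are not reported here. No sequence of *Ptpn2* is shown.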

Additional observations from a re-analysis of the deposited data

How the results depend on the processing

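No paired analysis was possible because the columns carry no replicate numbers; the table term stands in its place. Without the table term edgeR's quasi-likelihood test called 0 phosphatases and 0 genes, and with it 11 phosphatases higher and 3 lower, and 2358 genes higher and 2056 lower. Without the table term, edgeR's exact test called 1 phosphatase higher, and 196 genes higher and 17 lower. DESeq2's Wald test called 2 phosphatases higher, and 260 genes higher and 50 lower. Leaving out 1 library in turn, again without the table term, called 0 to 4 phosphatases higher and 0 lower, and 1 to 88 genes higher and 0 to 2 lower. The 4 were *Ptpn5*, *Ptpn13*, *Ptprs* and *Ptprv* with the CD4+Lrig1- library of set 1 left out, and the first pair was also called without the CD4+Lrig1+ library of set 2. The group left with 1 library is assumed there to vary like the other. With the table term a library cannot be left out, as no residual degree of freedom remains.

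With the table term, limma on log2(FPKM + 1) called 7 phosphatases higher (not *Ptpn22*, *Ptprj*, *Ptprn2* or *Ptprv*) and 2 lower (not *Ptpn12*). Of all genes it called 1911 higher and 1016 lower. *Ptprn2* was not called by DESeq2's Wald test with the table term, and *Ptprj* and *Ptprn2* were not called with DESeq2's size factors. With the table term, DESeq2's Wald test called 5 phosphatases and 1969 genes lower. With DESeq2's size factors 5 phosphatases and 2388 genes were lower, and at an adjusted p under 0.1 5 phosphatases and 2824 genes. The last 2 settings were chosen after seeing the data, as were 10 counts in every library and library totals with the table term. *Ptpn2* and *Ptpre* were called lower with DESeq2's size factors. With 10 counts in every library, *Ptpn2* was called lower, and *Ptpn18* and *Ptprm* higher. *Ptpn18* was also called higher with library totals. *Ptprc* and *Ptpn6* were called lower only in DESeq2's Wald test with the table term, of the fits run. The members at least 2-fold higher in both sets numbered 3 at a mean count of at least 50 and 3 on log2(FPKM + 0.1), which left out *Ptprm* and *Ptprn2*.

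Over 244 recomputed fold changes of named members, 239 kept their direction. The 5 reversals came from leaving out a library. *Ptpn18* ranged from -0.47 to 0.84 over the left-out libraries, *Ptprc* from -0.32 to 0.041 and *Ptprv* from -3.91 to 5.89. *Ptpn18* became -0.22 and -0.47 and *Ptprc* 0.041 and 0.023 without the CD4+Lrig1- library of set 1 or the CD4+Lrig1+ library of set 2. *Ptprv* became -3.91 in the fit without the CD4+Lrig1+ library of set 1. Leaving out a library leaves the sets unbalanced between the groups, and for *Ptprv* the sets differ far more than the groups do. Without unassigned transcripts, chosen after seeing the data, the CD4+Lrig1+ library of set 1 had 37.7% of *Ptprc* on transcripts with exon B and 62.3% on those without exons A, B and C. Counting them as with exon B, also chosen afterwards, gave 49.8% and 43.9% in CD4+Lrig1- and 46.9% and 36.6% in CD4+Lrig1+ T cells. The cause of the reversals and of the other changes was not tested.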
